A study of Mus musculus with 28 samples.

Results

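The replication-dependent histone genes encode the core histones that package newly copied DNA. They were taken as the protein-coding genes of the mouse build GRCm38.p6 whose symbol starts with H2ac, H2bc, H3c or H4c followed by digits, or with the older prefixes Hist1h, Hist2h, Hist3h or Hist4h. The rule found 57 genes among 21887 on the autosomes and the X and Y chromosomes. By type, 17 encode histone H2A, 16 encode H2B, 12 encode H3 and 12 encode H4. The measurement was a list of 125826 intervals enriched for H3K27ac, the acetylated form of lysine 27 of histone H3, which is found at active promoters and enhancers.

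The series holds 28 chromatin immunoprecipitation sequencing libraries in 25 groups by stage, population, genotype and antibody. Their cells are cranial neural crest cells of mouse embryos, a population that migrates into the face and builds much of its skeleton. The list analysed here came from 4 wild-type libraries of stage E10.5, 1 each of FNP, Mx, Md and PA2 (population names as in the labels), made from dissected, formaldehyde-fixed and sorted cells. The reads of the 4 libraries were merged before the intervals were called, so no interval carries a population and no value below has a replicate error. The other 24 libraries, which include other stages, marks and genotypes, were not analysed here.

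Replication-dependent histone genes are short and mostly lack introns, and their mRNAs end in a conserved stem-loop in place of a poly(A) tail. Their transcription rises in S phase, when NPAT, a substrate of the cyclin E and CDK2 kinase, acts at the gene clusters within a nuclear structure called the histone locus body. Many H2A and H2B genes stand head to head as pairs transcribed away from each other, and the stretch between them serves as the promoter of both. A proliferating population such as the early facial mesenchyme needs these genes in each round of DNA synthesis.

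The DNA before the start sites is shown first, because the intervals described further on stop on either side of it. RefSeq start sites of GRCm38.p6 were listed for 52 of the 57 genes. Those not listed were H2bc21, H4c14, H3c7, H2bc4 and H3c1. For each histone type the stretch before the start is printed for the gene with the highest and the gene with the lowest interval score among those with a listed start (H2ac20 ties with H2ac21), and for 1 further pair, chosen after its values were seen, that holds an octamer. Each runs 5′ to 3′ on the strand of the named gene and ends 1 base before its start unless stated otherwise, and is cut where it would enter a neighbouring gene. Capitals mark matches to TATAAA (or TTTATA on the other strand), to CCAAT (or ATTGG on the other strand) and to the octamer ATTTGCAT (or ATGCAAAT on the other strand). The 163 bases at chr13:21753913-21754075 lie between H2ac15 and H2bc15, which share the lowest score of their types, and are given on the minus strand, that of H2ac15. The 191 bases at chr3:96220881-96221071 precede H2ac20 on the minus strand. The 220 bases at chr13:23621125-23621344 precede H2bc6 on the minus strand and end 30 bases before its listed start. The stretches before H3c11 (chr13:21783398-21783647, minus strand), H3c13 (chr3:96268404-96268653, plus strand), H4c4 (chr13:23581318-23581567, plus strand) and H4c11 (chr13:21734784-21735033, plus strand) are 250 bases each. The 177 bases at chr13:22035644-22035820 lie between H2ac12 and H2bc12 and are given on the minus strand, that of H2ac12.
H2ac15: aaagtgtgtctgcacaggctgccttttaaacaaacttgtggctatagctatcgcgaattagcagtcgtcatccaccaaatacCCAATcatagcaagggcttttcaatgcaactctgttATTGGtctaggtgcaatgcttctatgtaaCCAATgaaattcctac
H2ac20: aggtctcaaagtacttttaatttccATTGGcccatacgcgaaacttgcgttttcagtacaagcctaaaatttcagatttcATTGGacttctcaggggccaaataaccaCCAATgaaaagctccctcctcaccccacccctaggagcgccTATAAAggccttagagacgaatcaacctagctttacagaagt
H2bc6: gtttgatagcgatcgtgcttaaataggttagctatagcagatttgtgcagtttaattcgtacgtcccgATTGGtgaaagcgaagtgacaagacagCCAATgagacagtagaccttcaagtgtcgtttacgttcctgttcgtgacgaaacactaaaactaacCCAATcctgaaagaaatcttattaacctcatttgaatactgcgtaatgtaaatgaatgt
H3c11: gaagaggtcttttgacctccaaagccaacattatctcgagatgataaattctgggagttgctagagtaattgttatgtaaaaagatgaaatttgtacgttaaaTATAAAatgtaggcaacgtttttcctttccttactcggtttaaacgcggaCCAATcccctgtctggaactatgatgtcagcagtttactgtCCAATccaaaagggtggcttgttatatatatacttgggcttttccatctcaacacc
H3c13: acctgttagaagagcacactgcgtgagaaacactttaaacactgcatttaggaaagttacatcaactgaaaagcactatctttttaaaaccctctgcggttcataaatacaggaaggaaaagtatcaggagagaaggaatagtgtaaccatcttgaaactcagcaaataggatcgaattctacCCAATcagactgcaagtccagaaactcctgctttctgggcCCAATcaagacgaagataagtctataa
H4c4: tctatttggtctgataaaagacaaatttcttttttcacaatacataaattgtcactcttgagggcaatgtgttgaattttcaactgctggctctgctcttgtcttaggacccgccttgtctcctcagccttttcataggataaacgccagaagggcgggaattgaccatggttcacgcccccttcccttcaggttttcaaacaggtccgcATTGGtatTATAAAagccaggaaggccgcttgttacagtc
H4c11: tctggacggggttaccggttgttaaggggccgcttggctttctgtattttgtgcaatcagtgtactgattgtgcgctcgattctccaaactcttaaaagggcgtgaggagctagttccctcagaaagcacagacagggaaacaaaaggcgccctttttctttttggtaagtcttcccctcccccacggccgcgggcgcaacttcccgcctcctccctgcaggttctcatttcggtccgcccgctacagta
H2ac12: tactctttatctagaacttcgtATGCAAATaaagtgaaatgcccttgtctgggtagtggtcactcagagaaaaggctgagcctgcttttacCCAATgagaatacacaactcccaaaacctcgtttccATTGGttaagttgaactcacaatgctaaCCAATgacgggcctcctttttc

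The CCAAT motif is the binding sequence of NF-Y, the octamer is that of the POU factor Oct-1 (Pou2f1), long studied at H2B promoters, and TATAAA is the core of the TATA box. In the 250 bases before the start, on either strand, CCAAT occurred in 42 of the 52 histone genes (80.8%), against 35.4% of the 21263 listed start sites of protein-coding genes. It was found at 17 of 17 H2A genes, 14 of 14 H2B genes, 8 of 10 H3 genes and 3 of 11 H4 genes. The octamer occurred at 12 histone genes (23.1%), 6 of them H2A and 6 of them H2B, and at none of the H3 or H4 genes, against 1.58% of all start sites. Since head-to-head genes share the bases between them, the H2A and H2B counts hold some matches in common. TATAAA was present at 24 histone genes (46.2%), with 7 H2A, 7 H2B, 4 H3 and 6 H4 genes, against 11.6% of all start sites. It was on the strand of the gene in 19 genes, with its first base a median of 41.5 bases before the start (range 10 to 250). In only 7 genes did that base lie 20 to 40 bases before the start. No match of 1 motif overlapped a match of another. The printed stretch between H2ac12 and H2bc12 holds the octamer and CCAAT matches, while that before H4c11 holds none of the motifs. A match describes letters in a window and says nothing of binding.

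All 57 histone genes had at least 1 H3K27ac interval within 1 kb of a gene end, which is called marked from here on. The same was true of 65.0% of all protein-coding genes. Of protein-coding genes of at most 1000 bp other than these 57, 6.82% were marked (9.89% with the histone genes counted in), and 52 of the 57 histone genes are of that size. The other short genes still include histone genes outside the rule, such as linker H1 genes and H4f16. An interval lay over the gene itself in 56 of the 57 histone genes, against 73.1% of all protein-coding genes, most of which are far longer (median length 487 bp against 17169 bp). The exception was H2ac1, a testis histone H2A gene, of which no base was covered. Among the 52 histone genes of at most 1000 bp a median of 82.9% of the gene was covered, against 47.2% in the 104 other marked genes of that size. With 1 merged list and no replicate, these shares could not be tested.

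The 57 genes were reached by 81 distinct intervals, since neighbouring genes share them. Of the 81 intervals, 40 lay at 1 histone gene, 35 at 2 and 6 at 3. In all, 24 genes had an interval that no other histone gene shared and 33 had shared ones only, so the genes are not independent observations. At least 2 intervals stood at 53 of the 57 genes, against 34.5% of all protein-coding genes. The intervals had a median width of 604 bp (quartiles 466 and 821), close to the 602 bp of intervals at all protein-coding gene ends and above the 271 bp of the whole list. When each interval was given only to the gene with the nearest end, a setting added after the data were seen, 55 of 57 genes were still marked. H2ac1 and H2ac20 then lost their intervals to neighbouring histone genes.

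The score of an interval is the authors' deposited value, which by the convention of the peak caller is 10 times −log10 of the q-value and grows with the number of merged reads. It was used only to rank intervals within this list. The highest score at a histone gene had a median of 2150 (quartiles 1472 and 2813, range 523 to 5894). Across all 14235 marked protein-coding genes the median was 2494, with quartiles of 704.5 and 4793.5 and a range of 38 to 34699. The histone genes therefore sat in the middle of the list: 22 were above that median, 35 at or below it, 1 above the upper quartile and 1 below the lower. Their own range was narrow beside that of all genes. The 104 other marked genes of at most 1000 bp, among them histone genes outside the rule, had a median of 417.5.

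**Figure D1:**
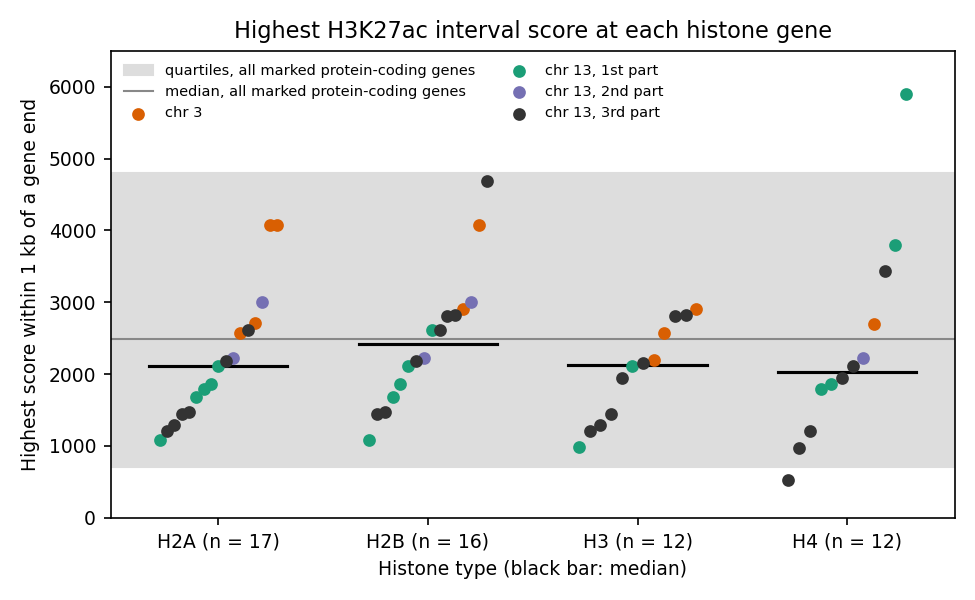
Highest H3K27ac interval score (vertical axis, the authors' score, no replicates) within 1 kb of the ends of each of the 57 histone genes, by histone type. Points are genes coloured by cluster, black bars are type medians (2116, 2419, 2133 and 2029.5), and the grey line and band are the median and quartiles of all marked protein-coding genes; all but 2 points lie inside the band.

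The histone gene with the highest score was H4c11, an H4 gene, at 5894. H2bc6 followed at 4683. Its annotated gene spans 37455 bp, unlike the compact form of most of its relatives. The interval with 4683 overlaps no base of H2bc6. It lies within 1 kb of the end of H2bc6 and over the linker histone gene H1f4. The other intervals of H2bc6 scored 1128 and 1671. H2ac21, H2ac20 and H2bc21 shared 1 interval of 4072, which covers all of H2ac21. H4c12 had 3796, H4c8 had 3430, and the head-to-head genes H2ac12 and H2bc12 shared 3009. The 8 lowest genes were of all types, with 3 H4, 2 H3, 2 H2A genes and 1 H2B gene. H4c4 had a single interval of 523, H4c2 had 974 and H3c11 had 980. H2ac15 and H2bc15 shared 1082, and H2ac4, H3c2 and H4c6 each had 1214. The lowest of these lies above the median score of 111 over the whole list, which counts intervals anywhere in the genome. Taken singly, the 81 intervals had a median score of 1294, against 1116 for intervals at all protein-coding gene ends. Of the 81, 80 had a score of at least 100, while the lower quartile at all protein-coding gene ends was 246.75.

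By histone type the medians of the highest score lay close together. They were 2116 in H2A (1082 to 4072), 2419 in H2B (1082 to 4683), 2133 in H3 (980 to 2901) and 2029.5 in H4 (523 to 5894). The highest H2B value is that of the interval over H1f4. Other highest scores, among H2B genes above all, also belong to an interval upstream or over a neighbour. The 3009 of H2bc12 lies over H2ac12, while the interval over H2bc12 itself had 790. Across the 8 head-to-head pairs described further on, the H2A side had a median of 1776 and the H2B side 911, with H2A higher in 7. The medians by type therefore do not compare intervals over the genes themselves. The ranges overlapped in every pair of types, and the H4 genes spread the widest, holding both the highest and the lowest score of the family. In the plot of scores by histone type, genes of 1 pair or 1 shared interval appear at the same height.

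The genes fell into 4 stretches when neighbours less than 200 kb apart were joined. The first of 3 on chromosome 13 (chr13:21715711-21833475, 16 genes) had a median highest score of 1868 (980 to 5894). The second (chr13:22035122-22043658, 5 genes) had 2225 (2225 to 3009). The third (chr13:23531044-23934913, 26 genes) had 1951 (523 to 4683, the latter from the interval over H1f4). The stretch on chromosome 3 (chr3:96219885-96270192, 10 genes) had 2804 (2199 to 4072). The 3 stretches on chromosome 13 make up the large Hist1 cluster and the 1 on chromosome 3 is the Hist2 cluster. Every gene of the Hist2 cluster had a highest score of at least 2199, above the family median of 2150, as did every gene of the second stretch on chromosome 13. Some of these scores belong to intervals within 1 kb that overlap no base of the gene. In the second stretch all highest scores come from the intervals of 3009 and 2225, while those over H2bc12, H2bc11 and H4c9 had 790, 677 and 999. The ranges of all 3 stretches on chromosome 13 overlapped that of the Hist2 cluster. No test of the difference was possible.

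The Hist2 cluster can be read gene by gene. H2ac21, H2ac20 and H2bc21 shared 4072 as described, but the interval over H2bc21 had 361. H3c15 and H2ac19 shared 2573, which lies over H2ac19, while the interval over H3c15 had 2312. H2ac18 had 2707 from an interval upstream of the gene and 1422 over it. H3c14, which stands beside H2ac18 and is nearly identical in its promoter to H3c15, had 2199. H4c14, the H4 gene of the cluster, had 3 intervals that no other histone gene shared. The highest, 2704, lies beside the gene, and the interval over it had 757. H3c13 and H2bc18 shared 2901, which lies over H3c13, while the interval over H2bc18 had 608. H3c13 had 4 intervals, the most of any of the 57 genes.

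**Figure D2:**
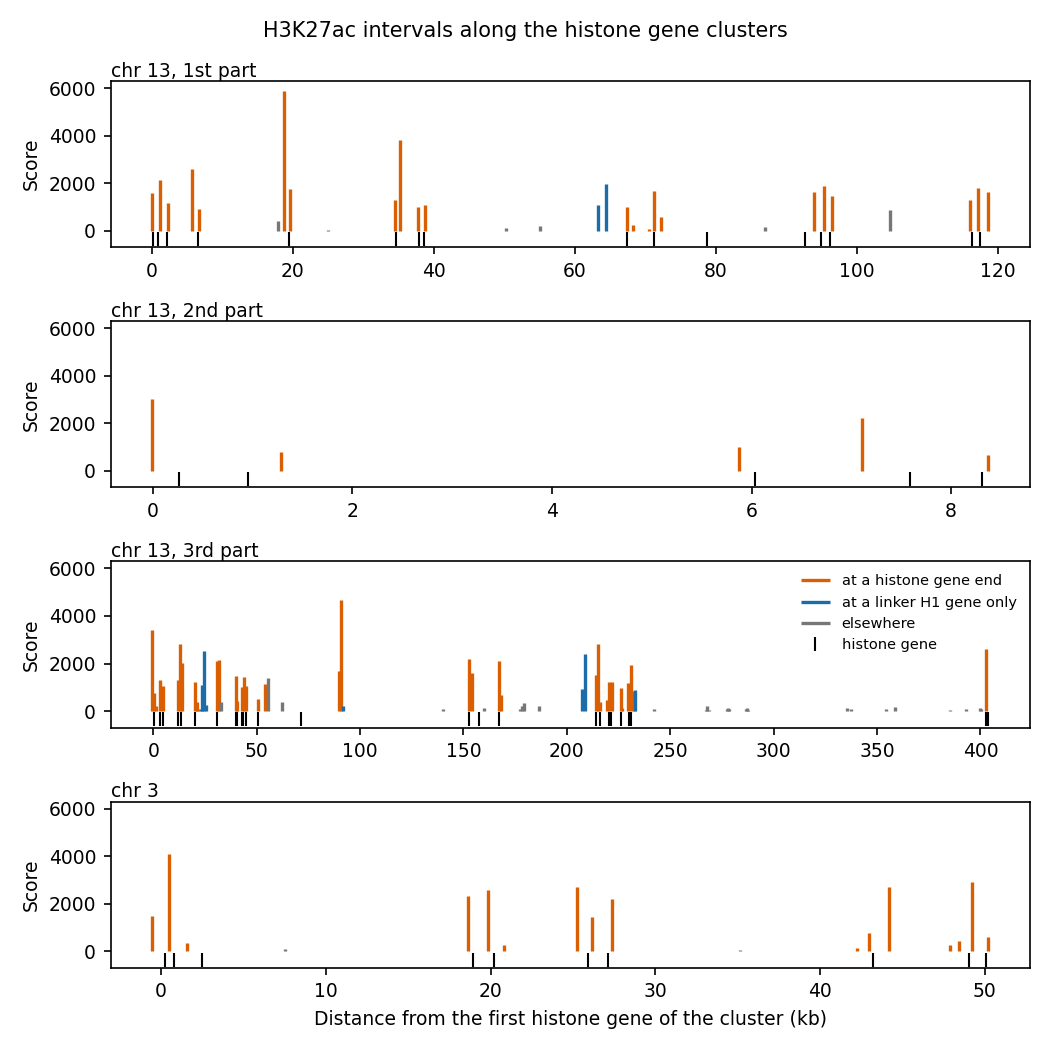
H3K27ac intervals along the 4 stretches of histone genes, with the distance from the first histone gene on the horizontal axis (kb, a scale of its own for each panel) and the authors' score on the vertical axis. Black ticks are histone genes; orange bars, at a histone gene end, stand in groups above them, blue bars lie at linker H1 genes only and grey bars lie elsewhere (median 108, highest 1388).

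The intervals were dense where the histone genes stood. With 1 kb added at each end of a stretch, the first on chromosome 13 held 30 intervals in 119.765 kb. There were 4.75 per 10 kb in the second, 1.80 in the third and 3.44 in the Hist2 cluster. The whole of chromosome 13 had 0.545 per 10 kb and chromosome 3 had 0.470. Intervals covered 15.4%, 41.3% and 9.18% of the bases of the 3 stretches and 21.1% of the Hist2 cluster, against 2.05% of chromosome 13 and 1.74% of chromosome 3. In the 1485.385 kb between the second and the third stretch there were 0.337 intervals per 10 kb, and 5 of 41 protein-coding genes were marked.

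Within the 4 stretches, widened in the same way, 45 intervals lay within 1 kb of no end of the 57 genes, 3 of them inside the long annotated spans of H2bc6 and H2bc4. Of the 45, 10 lay at the ends of linker H1 genes and 33 at no protein-coding gene end, and the 35 away from H1 genes had a median score of 108. Their highest, 1388, lies beside a further listed start of H2bc6, described further on. The 6 non-histone genes that stand among the histone genes had few intervals at their ends. Hfe, which encodes a regulator of iron uptake, had 326 there and Slc17a1, a phosphate transporter gene, had 91. Trim38, Slc17a2, Slc17a3 and Slc17a4 had none within 1 kb of an end, although 6 intervals lay inside Slc17a2. That is 33.3% marked, against 65.0% of all protein-coding genes.

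The base at which transcription starts was itself nearly always outside the intervals. Of the 52 histone genes with a listed start, 45 (86.5%) had an uncovered start with intervals within 1 kb on both sides, here called a flanked start. This was found at 14.6% of the 17492 protein-coding genes with a listed start, and at 22.7% of those with an interval within 1 kb of it. The start was covered at 2 histone genes, H2bc6 and H2ac21 (3.85%), against 39.3% of all genes with a listed start. H2bc6 has a further listed start inside its long annotated span, and that one was flanked, by intervals of 1128 and 1388. An interval stood upstream only at H2ac1, and downstream only at H2ac10, H4c4, H4c2 and H2bc1. By type the start was flanked at 14 of 17 H2A, 12 of 14 H2B, 10 of 10 H3 and 9 of 11 H4 genes. By stretch it was flanked at 16 of 16, 5 of 5 and 17 of 23 genes on chromosome 13 and at 7 of 8 in the Hist2 cluster.

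**Figure D3:**
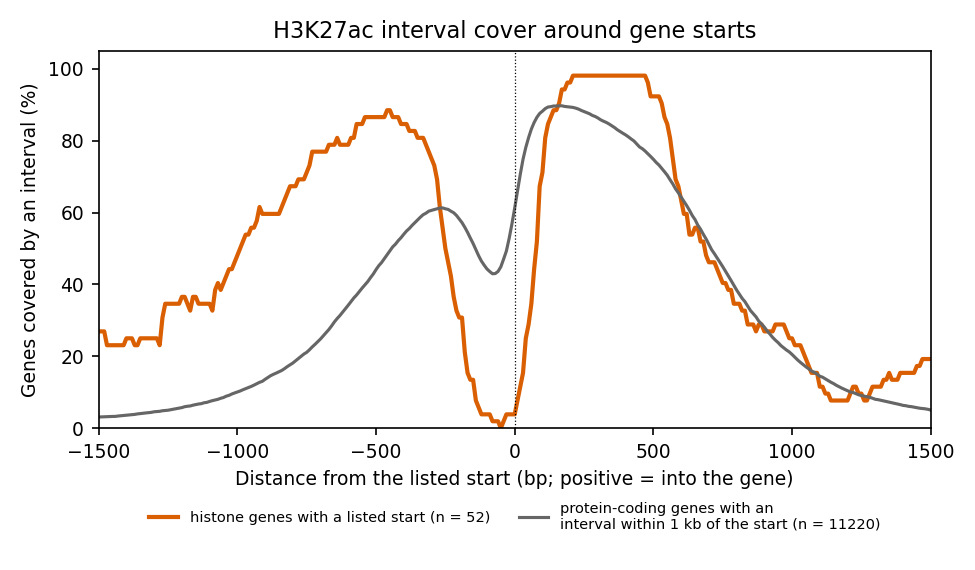
Share of genes (%) covered by an H3K27ac interval at each distance from the listed start (bp, positive into the gene), for the 52 histone genes with a listed start and for the 11220 protein-coding genes with an interval within 1 kb of the start. The histone genes reach 88.5% at 460 bp upstream, fall to 0 at 50 bp upstream and reach 98.1% at 210 bp inside the gene; the other curve also dips, from 61.3% at 260 bp upstream to 43.0% at 80 bp upstream, and is at 61.3% at the start and 89.7% at 160 bp inside the gene.

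At the 45 flanked starts the uncovered stretch had a median length of 320 bp (quartiles 273 and 358, range 135 to 886), against 193 bp at the 2551 flanked starts of all protein-coding genes. Most of it lay before the start: a median of 232 bp upstream and 75 bp downstream, against 150 bp and 33 bp. In 8 head-to-head pairs, described further on, both genes have the same uncovered stretch. It is counted for each of them, so the 45 starts hold fewer distinct stretches. The shortest was that of H4c11, with 135 bp, followed by H4c12 with 156 bp and H3c13 with 173 bp. The longest was that of H3c4, with 886 bp, where the nearest upstream interval belongs to H2ac7. The motifs named above were counted in the 250 bases before the starts of all 52 genes, flanked or not. Matches between head-to-head genes can count for both genes. All 123 CCAAT matches and all 12 octamer matches lay in uncovered bases, as did 25 of 27 TATAAA matches. Of all bases in these windows 85.4% were uncovered, so most matches at any place in them would be.

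The interval upstream of a histone gene is often that of the next histone gene. In 31 of the 45 genes with a flanked start the upstream interval overlapped another histone gene, and in 14 it did not. The 14 had a median score of 2381.5 upstream and 1347.5 downstream, and the upstream interval had the higher score in 8 of them. The difference was largest at H4c11, with 5894 before the start and 1737 over the gene, while H4c12 had 3796 and 1273 and H4c8 had 3430 and 748. The order was the opposite in 6 of them, most so in H3c13, with 432 before the start and 2901 over the gene, and in H2ac19, with 268 and 2573. In H4c3 these scores were 665 and 2108, and in H3c11 they were 256 and 980. Over all 45 genes the upstream score was the higher in 27 and the downstream score in 18. In 8 head-to-head pairs, described further on, the upstream interval of each gene is the downstream interval of its partner. These pairs add equally to both counts by construction. At flanked starts of all protein-coding genes the downstream score was the higher in 70.0%. Because the counts over the 45 genes are partly fixed by the pairs, no conclusion is drawn from them beside this share.

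In most head-to-head pairs of H2A and H2B genes both starts were flanked. There were 9 such pairs in which both starts were listed, with starts 164 to 281 bp apart (median 180 bp). In 9 of 9 no base between the starts was covered. All starts of these pairs were uncovered, so only an interval narrower than their distance could lie between them. At all protein-coding gene ends the lower quartile of interval width was 334 bp, above the longest of these distances. The 9 of 9 therefore adds little to the uncovered starts, and no share was computed for head-to-head pairs of other genes. In 8 pairs an interval lay over each gene, with an uncovered stretch of 273 to 392 bp between them. The interval on the H2A side scored 987 to 3009 (median 1776) and the one on the H2B side 403 to 1630 (median 911). The H2A side was the higher in 7 of 8 pairs. At H2ac13, H2ac23, H2ac11 and H2ac7 the interval on the H2A side is also the upstream interval of a further histone gene (H3c10, H4c17, H4c9 and H3c4). Its score there cannot be credited to the H2A side of the pair alone. Among these 8, the largest difference in score was that of H2ac12 and H2bc12, with 3009 against 790. H2ac11 had 2225 against 677 for H2bc11, H2ac22 had 1684 against 557 for H2bc22, and H2ac8 had 1472 against 403 for H2bc8. The H2A side was nearer to the H2B side in H2ac13 and H2bc13, with 2116 against 1575, in H2ac7 and H2bc7, with 1440 against 1032, and in H2ac23 and H2bc23, with 1868 against 1630. In H2ac15 and H2bc15 the H2B side was the higher, with 987 on the H2A side against 1082. The pair H2ac1 and H2bc1, which encodes the testis forms of H2A and H2B, had 1 interval of 2620, over H2bc1 only. H2ac20 and H2ac6 were not counted, because no start was listed for their neighbours H2bc21 and H2bc4. The intervals over and upstream of H2ac20 scored 4072 and 361, a larger difference than in any counted pair, and those of H2ac6 scored 2186 and 1601. H2ac24 was left out too, because its neighbour H4bc24, an H2B gene by its older symbol, is outside the rule. The intervals over and upstream of H2ac24 scored 1797 and 1610.

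**Figure D4:**
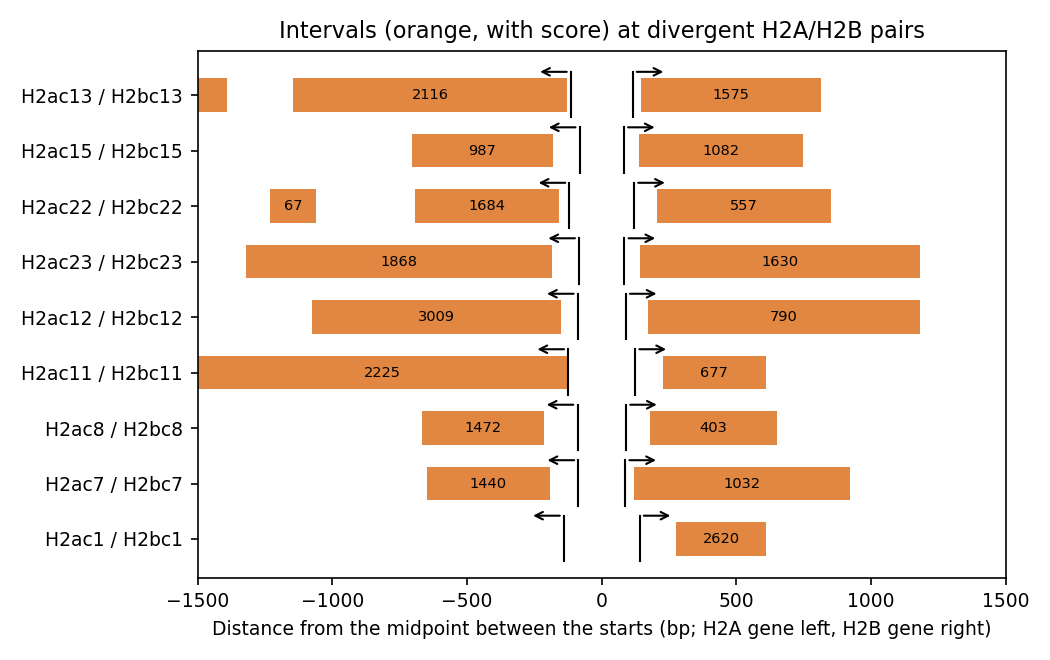
Intervals (orange bars, with their score where there is room) at the 9 head-to-head H2A/H2B pairs, drawn to scale by distance from the midpoint between the 2 starts (bp) with the H2A gene on the left. Vertical lines with arrows are the listed starts; the stretch between them is free of intervals in all 9 pairs, and the H2ac1 side of the last pair has none.

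Some histone genes are so alike that reads could be placed at either copy. Over the 250 bases before the start, 3 of 327 pairs of the same type were at least 90% identical, and the median was 51.2%. H4c17 and H4c18 (99.6%) had upstream and downstream scores of 1868 and 1460 against 1797 and 1304. H3c14 and H3c15 (94.0%) had 1422 and 2199 against 2573 and 2312, and H4c11 and H4c12 (90.4%) had 5894 and 1737 against 3796 and 1273. How reads that match several places were treated is not given in the sources used here, so scores of these genes are uncertain. Identity within the genes was not measured, though intervals covered a median of 82.9% of the 52 genes of at most 1000 bp. Scores of other histone genes may therefore be uncertain as well. Without the 6 genes of the 3 near-identical pairs, a setting added after the data were seen, 39 of 46 starts (84.8%) were flanked. This setting does not address likeness within the genes.

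Other genes of histone biology were read from 4 lists. The share of marked genes to set beside theirs was 65.0% over all protein-coding genes. The replacement variants, most of which are made throughout the cell cycle from polyadenylated mRNAs, were marked in 10 of 11 genes with a median highest score of 6150.5. The highest were H1f0 with 8429, Macroh2a2 with 7484 and H2az1 with 7001, and H3f3b, which encodes the replacement form of H3, had no interval at its ends, while H3f3a, which encodes the same protein, had 6389. Factors of histone gene expression were marked in 18 of 18 (median 4361), led by Slbp, the stem-loop binding protein, with 10756, E2f1 with 8327 and Casp8ap2, a component of the histone locus body, with 8052. Npat had 3629. Histone chaperones were marked in 15 of 15 (median 5587), led by Nap1l1 with 9643, Rbbp4 with 8607 and the acetyltransferase gene Hat1 with 7519. S-phase genes were marked in 16 of 16 (median 4532.5), led by Mcm5 with 9973, Cdt1 with 9433 and Gins1 with 7532, all of DNA replication. All 4 list medians lay above that of the core histone genes (2150) and of all marked protein-coding genes (2494). Of their genes with a listed start, 3 of 10, 3 of 15, 4 of 14 and 3 of 12 had a flanked start, against 14.6% of all genes with a listed start and 22.7% of those with an interval near it. These values are descriptions of 1 list and were not tested.

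**Figure D5:**
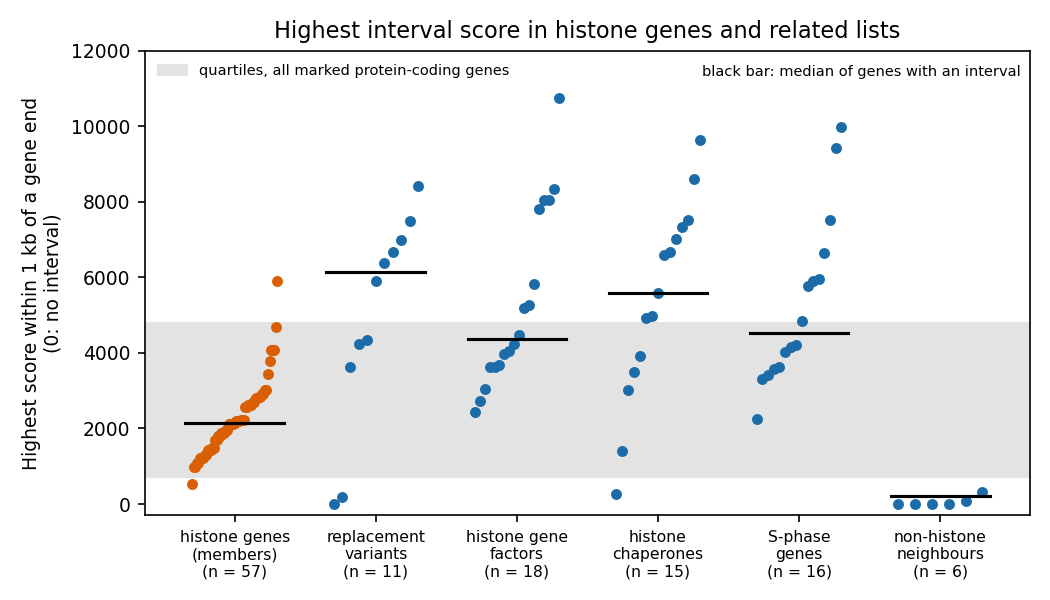
Highest interval score (authors' score, 0 where a gene has no interval) at the 57 histone genes, at 4 lists of genes of histone biology and DNA replication, and at the 6 non-histone genes among the histone genes. Points are genes, black bars are medians of the genes with an interval and the grey band gives the quartiles of all marked protein-coding genes; the histone genes have a median of 2150 and the 4 lists have medians of 4361 to 6150.5.

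The labelled cell type was checked by marker genes of the same list. Of 14 crest and mesenchyme markers 13 were marked (median 1307, range 50 to 4697), all but Tfap2a, against 65.0% of all protein-coding genes, whose marked members had a median of 2494. Some crest markers were low: Sox10 had 50, Prrx1 had 87 and Pdgfra had 137, against 98 to 391 at the endothelial markers. Of 4 markers each, 1 of blood (Spi1, 1492), 4 of endothelium (median 103.5), 3 of epithelium (median 439) and 2 of muscle (median 261.5) were marked, while Hba-a1, Hbb-y and Gata1 of the blood list, Cdh1 of the epithelial list and Myod1 and Tbx1 of the muscle list had no interval at a gene end. The part of other cell types in the histone gene intervals was not tested, and in merged cells a mark in few cells and a weak mark in many cannot be told apart.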

How the data were processed

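H3K27ac chromatin immunoprecipitation was measured in sorted wild-type cells, 1 library from each of 4 populations at embryonic day 10.5. Per the text deposited with the list, the authors merged the 4 alignments and called intervals with MACS2 2.1.3.3 without a model, with a shift of 0, an extension of 141 bp, a q-value limit of 0.001 and no removal of duplicates. That text names no control. Per the submitters' processing notes, bcl2fastq 2.17 and Bowtie 1.1.1 were used, with GRCm38 (mm10). Sequencing depth and the handling of reads that match several places are not given in the sources used here. The unit is the score deposited by the authors, 1 per interval, and its scale is known by convention only. Sorting reporters are not given in the labels used here.

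Gene positions and the bases around start sites came from RefSeq tables of GRCm38.p6. A gene was marked if any base of an interval fell within 1 kb of its annotated start or end. The outermost listed start of a gene was used. Counting was tested on simulated intervals. Python 3.11.15, pandas 2.3.3, numpy 2.4.6 and matplotlib 3.10.9 were used. With 1 merged list there is no replicate, so no test was run and values are counts, shares and medians beside those of all genes. Genes named with values are the 8 with the highest and the 8 with the lowest score, the unmarked ones, all of the Hist2 cluster, and in each list the 3 highest and the unmarked. The printed sequences are those of the highest and lowest gene of each type, with 1 further pair. Genes named beyond these (H4c8, H4c3 and H2ac19 for upstream and downstream scores, the pairs, H3f3a, the near-identical copies, Npat) were chosen after their values were seen. The histone genes and all lists were chosen with earlier results of these data known. The start, pair, motif and identity measures were added after the intervals were seen. Alternatives are given in the closing section.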

Additional observations from a re-analysis of the deposited data

How the results depend on the processing

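Of 89 alternatives to 13 results, 86 kept the result within a set limit and 3 moved it further. For shares the limit was the exact binomial 95% interval of the main share, and for counts and medians a factor of 1.5. That interval takes genes as independent, although many share intervals, and it is wide in small groups. For the shares by cluster and type, staying within it therefore says little. The median highest score of 2150 became 1363 with only intervals over the gene, and 1422 with the interval nearest to the start, or to the midpoint where no start was listed. The share of flanked starts became 66.7% (14 of 21) without genes whose upstream interval lies over another histone gene, an alternative that by its construction leaves out flanked genes only. All genes then had 14.4%. The share of marked genes was 100% with windows of 500 bp and 2.5 kb, with scores of at least 100 and with the higher-scored 50% of intervals, where all protein-coding genes had 61.5%, 70.8%, 61.2% and 60.5%. It was 98.2% with intervals over the gene only and 98.5% with older symbols included. The flanked settings were chosen after seeing the data. The share was 82.7% with intervals within 500 bp (14.2% of all genes), 76.9% with no interval within 25 bp of the start (8.72%), 88.0% at starts on the annotated gene end (13.7%) and 88.5% at the innermost listed start (13.3%). No paired analysis was possible because intervals were called once on the merged libraries. The unknown depth limits the scores, and a gene with no interval may carry a mark too weak to be called.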

Other observations

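Further histone genes have an older Hist symbol but a current symbol outside the rule. With them, 66 of 67 genes were marked. The linker histone genes, whose products bind the DNA between nucleosomes, had highest scores of 4683 at H1f4, 2547 at H1f3, 2396 at H1f2, 1945 at H1f5 and 866 at H1f1. H1f6, the testis linker histone gene, lies in the same cluster and had no interval. H4f16, a lone H4 gene on chromosome 6, had 11823, above the 5894 of H4c11 and the 10756 of Slbp. H2aw and H2bu2 on chromosome 11 had 2735 and 1687. The gene listed as H4bc24, whose older symbol Hist1h2br is that of an H2B gene, had 1797 and shares that interval with H2ac24. A flanked start was found at H1f1, H1f2, H1f3, H1f4, H2bu2, H4bc24 and H4f16, with uncovered stretches of at most 321 bp. At H2aw the start was covered.

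The 199.646 kb between the first and the second stretch on chromosome 13 held 27 intervals (1.35 per 10 kb), and 2 of its 3 protein-coding genes were marked.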
